A study of Mus musculus with 7 samples.

Results

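Peg10, Sgce, Peg3, Usp29, Inpp5f, Mest, Grb10, Plagl1 and Impact are 9 protein-coding genes of the mouse that are subject to genomic imprinting. They were chosen by name from 55450 annotated genes, of which 21938 are nuclear coding genes. Reads of these genes were sought in RNA sequenced in a series of Ezh2 immunoprecipitations, with controls, from nuclei of mouse embryonic stem cells. The labels do not tie the reads to Ezh2 or to control libraries. The reads were described by strand, by start position and by transcript part. The series asked which RNAs associate with Polycomb repressive complex PRC2.

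At an imprinted gene the copy inherited from one parent is transcribed and the other is kept silent, through DNA methylation set in the germ line and, at some loci, through histone methylation laid down by PRC2. Ezh2 is the catalytic subunit of PRC2 and methylates histone H3. Grb10 is expressed from the maternal copy in most tissues, and the others are known as paternally expressed. Sgce and Peg10 start head to head at one imprinting control region, and so do Peg3 and Usp29, so that each pair shares a promoter region but is read in opposite directions.

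In RNA immunoprecipitation sequencing (RIP-seq) an antibody draws a protein out of a lysate, and co-purified RNA is turned into cDNA and sequenced. The labels describe 7 libraries, none treated and all from cells grown with LIF. An anti-Ezh2 antibody was used in 5 libraries of wild-type cells of strain 129X(M.castaneusX129) and in 1 library of Ezh2-null cells, labelled M.musculus, and IgG was used in 1 library of the wild-type strain. Among the 5, 1 is labelled a technical replicate and 1 a biological replicate. A further 2 are deeper runs of 2 lanes each, made from the first sample and from the biological replicate. The labels do not say how the Ezh2-null line was made.

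All values were taken from 1 deposited table, which gives a read count for each of 6540936 distinct sequences and sums to 34072479 reads. The labels do not say which library or libraries it holds, and it was read as 1 pool. It has no replicates and allows no comparison with IgG or with Ezh2-null cells, so that a gene's reads in it are a description and not an enrichment. Intervals are 95% intervals of counting error only, exact Poisson for counts and exact Clopper-Pearson for shares, and copies made by PCR could not be told from separate molecules. A search of 31529044 reads gave 36.04% to a single gene and strand. In such a pool fewer expressing cells and less RNA per cell cannot be told apart.

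Markers of the labelled cell type were present: 8 of 10 embryonic stem cell genes had at least 50 sense reads, led by Tdgf1 with 4569, Tfcp2l1 with 1023 and Zfp42 with 618. Nanog with 37 and Utf1 with 6 did not reach it. Over all nuclear coding genes 29.1% had as many. All 10 fibroblast and matrix genes passed the same minimum, led by Fn1 with 39714 sense reads, Postn with 5268 and Col1a1 with 3775. Not scaled to length, they summed to 57645, mostly from Fn1, against 7735 for the stem cell list. Per kb of exon and per 1000000 searched reads (RPKM), the median level was 9.305 in this list and 3.867 in the stem cell list. In the trophoblast list 1 of 7 genes passed (Tfap2c with 114, then Krt8 with 11 and Elf5 with 7), and in the neural list 1 of 5 (Nes with 205, then Map2 with 35 and Sox1 with 32). The part of other cells in the levels of the imprinted genes was not tested.

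The lines that follow show a selection of the highest start positions of 7 of the genes, so that strand and place of the reads can be seen. Each line gives the RNA strand, 5′ to 3′, at one of the highest start positions: the lower-case letters are the last 24 bases of RNA matched by the reads, and the 6 capitals are the next bases, which the reads' left-out leading bases cover. The sequences are from GENCODE M21 transcripts and the coordinates are those of GRCm38.

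Peg10 sense, second reading frame, chr6:4756049-4756078, plus strand, 51 reads: gtatccggttatgcaccaccatctGCCTCC
Peg10 sense, downstream of the frames, chr6:4757484-4757513, plus strand, 47 reads: cagagggagagaagaggaagagaaGAAGAA
Peg10 antisense, chr6:4758128-4758157, minus strand, 35 reads: tcttcatggtagatgccactgagtGGGCGG
Sgce sense, exon 4, chr6:4717948-4717977, minus strand, 24 reads: ggagtcctgtatgggtctccaacaGCTGAA
Peg3 sense, exon 9 downstream untranslated, chr7:6705547-6705576, minus strand, 49 reads: gtaaaaacaaattagaaagaagtgTCCTGG
Peg3 sense, exon 9 coding, chr7:6710970-6710999, minus strand, 40 reads: gtagagatcaggaggatgaggagaCCATCA
Peg3 antisense, chr7:6705399-6705428, plus strand, 65 reads: ctatgacactgacttccatttcaaGGGAGC
Usp29 sense, exon 1, chr7:6730868-6730897, plus strand, 13 reads: ttctgcctgcaacacccaagcactAAGCTA
Inpp5f sense, retained intron, chr7:128668734-128668763, plus strand, 47 reads: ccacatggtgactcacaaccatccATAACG
Inpp5f antisense, last exon, chr7:128695869-128695898, minus strand, 168 reads: atgacgggcaagcccatacttaagAATTTG
Inpp5f antisense, last exon, chr7:128695908-128695937, minus strand, 160 reads: caataaacatgatcttatattcctGCAGCA
Mest sense, exon 13, chr6:30747502-30747531, plus strand, 21 reads: ttttggtgttaaatacctcaaaaaACCCCC
Plagl1 sense, retained intron, chr10:13106100-13106129, plus strand, 37 reads: catgattgcttattcagtgtagttGGGGAA
Plagl1 antisense, last exon, chr10:13130641-13130670, minus strand, 18 reads: ggggaatacagtctcaaaaacaaaGTGGAG

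Most of these 30-base stretches have no copy in another annotated gene, but the Inpp5f sense stretch shown has many. With up to 2 mismatches it was found in 161 other genes, and with up to 4 mismatches in 1180. Of the other stretches shown, 1 (Peg10 downstream of the frames) had a copy in 1 other gene at up to 4 mismatches and the remainder had none. The bases printed are those of the annotation, and the reads can differ from them. At the Inpp5f antisense position with 168 reads, 39 matched without a mismatch, and the base difference G128695894A described below lies in that printed stretch.

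All 9 genes had reads of both strands, and their levels spread widely. Sense reads were scaled to exon length in kb and to 1000000 searched reads (RPKM, computed from the deposited counts). Exon length merges all annotated transcripts, retained-intron ones included, which lowers a level where these are long, as in Sgce. On this scale Peg10 was highest at 3.86 [3.60, 4.14]. Impact followed at 2.25 [2.02, 2.49], Inpp5f at 2.18 [2.00, 2.36] and Peg3 at 1.52 [1.41, 1.65]. Mest stood at 0.482 [0.368, 0.621], Grb10 at 0.335 [0.271, 0.409] and Plagl1 at 0.223 [0.168, 0.290], above Sgce at 0.134 [0.0981, 0.180] and Usp29 at 0.0509 [0.0341, 0.0731]. Intervals of neighbours in this order overlapped between Impact and Inpp5f, Mest and Grb10, Grb10 and Plagl1, and Plagl1 and Sgce, and at no other step. The place of Inpp5f rests on 1 group of reads: without those starting within 50 bases of its highest position the level was 0.789, under that of Peg3. With reads of several equal placements added, Inpp5f stood at 6.58 RPKM and Peg10 at 3.89, so that the first place of Peg10 holds for reads of 1 gene.

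At least 50 sense reads were found for 7 of the 9 genes, all but Sgce and Usp29, where 29.1% of all nuclear coding genes passed the same minimum. The median level of the 9 was 0.482 RPKM, against 0.0852 over all coding genes and 0.975 over the 6376 coding genes with at least 50 sense reads. Peg10 lay above 84.4% of those 6376 genes, Impact above 74.7%, Inpp5f above 74.0% and Peg3 above 65.2%. Mest lay above 23.95% of them, Grb10 above 12.6% and Plagl1 above 4.80%.

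**Figure D1:**
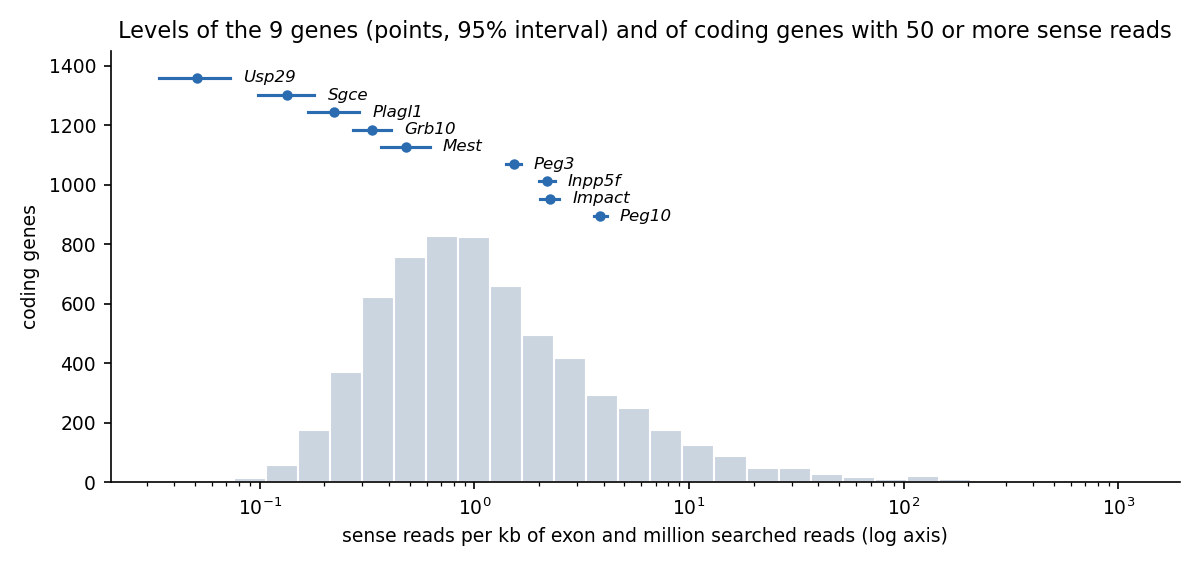
Levels of the 9 genes on a log axis of sense RPKM, as points with 95% intervals of counting error, above a histogram of the coding genes with at least 50 sense reads (vertical axis, number of genes in each bar; the height of a point carries no value). Peg10, Impact, Inpp5f and Peg3 lie between 1.52 and 3.86, and Usp29 at 0.0509 lies at the lower edge of the histogram.

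Strand was examined next, since antisense transcription is well known at imprinted loci. The 9 genes together had 2671 sense and 2035 antisense reads, an antisense share of 43.2% [41.8, 44.7], against 13.7% over all nuclear genes. Counted once per start position, with 401 sense and 145 antisense positions, the share was 26.6% [22.9, 30.5], against 25.0% over all nuclear genes. The distance from other genes was thus present in reads and not in start positions. Inpp5f gave 1168 of the antisense reads, and without that gene the share by reads was 29.2% [27.6, 30.9].

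Taken singly, 1 of the 8 genes with at least 50 reads of both strands had an antisense share called above 50% by its interval, where 15.7% of 8896 nuclear genes did, and that gene was Inpp5f. By start positions 0 of the 8 did, against 4.37% of the same 8896 genes. The intervals of Peg10, Peg3, Mest, Grb10 and Impact lay below 50%, and those of Sgce and Plagl1 included it, as did that of Usp29, which had 45 reads in all. For Mest, reads antisense to it that match the overlapping gene Copg2 in sense were counted for Copg2. The median antisense share by reads was 32.6% over the 8 genes and 15.7% over the 7783 coding genes with at least 50 reads. By start positions the medians were 23.9% and 21.4%.

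**Figure D2:**
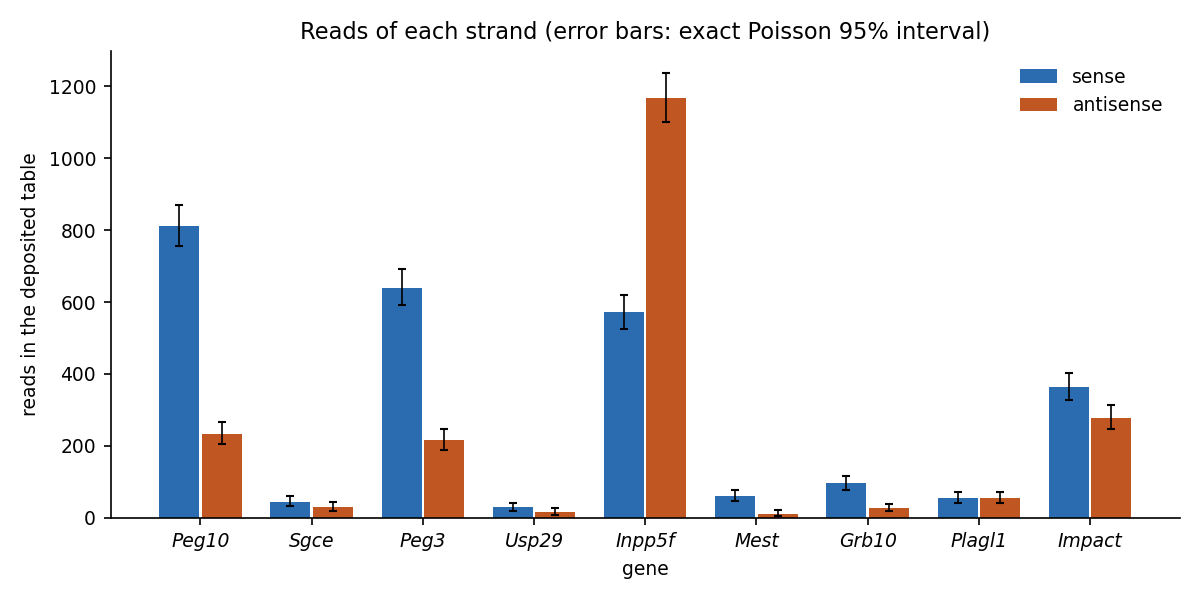
Sense and antisense reads of each gene in the deposited table (vertical axis, reads; error bars, exact Poisson 95% intervals of counting error). The antisense bar stands clear of the sense bar in Inpp5f, with 1168 against 571 reads, the bars of Plagl1 are level at 54 and 55, and in Peg10, Peg3, Mest, Grb10 and Impact the sense bar is higher.

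The head-to-head neighbours Peg10 and Sgce stood far apart in level. Peg10 (chr6:4747306-4760517, plus strand) derives from a retrotransposon, is required for the mouse placenta, and encodes gag-like and pol-like proteins from overlapping reading frames that ribosomes join by frameshifting. Sgce (chr6:4674350-4747207, minus strand) encodes epsilon-sarcoglycan, a membrane glycoprotein of the sarcoglycan family, and 98 bases separate its annotated start from that of Peg10. Peg10 had 812 sense reads [757, 870] at 127 start positions, and Sgce had 45 [32.8, 60.2] at 13. Per kb of merged exon the level of Peg10 was 28.7 times that of Sgce. This ratio depends on the length used. The merged exons of Sgce have 10612 bases and include the retained-intron transcripts Sgce-212 and Sgce-213, of 4416 and 3066 bases. Its longest coding transcript has 1776 bases, and 38 of its 45 sense reads started on it. For Peg10 both lengths are 6667 bases, so that the contrast per kb of coding transcript is smaller.

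Within Peg10 the sense reads lay mainly over the second reading frame, the pol-like one. That frame (chr6:4755426-4757237) took 509 of the 812 sense reads, 62.7% [59.3, 66.0], at 69 start positions. The first, gag-like frame (chr6:4754221-4755348) took 69 reads, 8.50% [6.67, 10.6], at 25 positions. Per kb there were 281 sense reads over the second frame, 61.2 over the first and 69.5 over the 3280 bases downstream of both. Counted once per start position the densities were 38.1, 22.2 and 8.54 per kb, so that the second frame was highest in either count while the first frame and the downstream sequence changed places. The highest start position, in the second frame, held 51 reads or 6.28% of the sense reads. The next 2 positions lie just downstream of the second frame and held 47 and 45.

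Antisense reads of Peg10 numbered 234, a share of 22.4% [19.9, 25.0], and were placed differently along the transcript. The sequence downstream of the frames held 131 of them, 56.0% [49.4, 62.4], against 28.1% [25.0, 31.3] of the sense reads. The second frame held 62 antisense reads, 26.5% [20.96, 32.6]. Per kb there were 39.9 antisense reads downstream of the frames, 34.2 over the second frame and 26.6 over the first. Counted once per start position the densities were 4.57, 5.52 and 6.21 per kb, so that their order turned around. The printed antisense stretch lies in the downstream sequence, and 61 antisense reads started within 50 bases of its highest position, at 3 positions. None of the 812 sense reads crossed a splice junction (exact interval up to 0.453%). The longest coding transcript has only 2 exons, which meet in the upstream untranslated sequence, where 5 sense reads lay.

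Few reads of Sgce were found and they rested on single positions. Of its 45 sense reads, 24 started at 1 position in exon 4 of 12, in coding sequence, 53.3% [37.9, 68.3], and 3 of these 24 matched the annotated sequence without a mismatch. Of its 30 antisense reads, 18 started at 1 position (4709311 on chromosome 6) of the retained-intron transcript Sgce-212, and 0 of these 18 matched without a mismatch. With those reads the antisense share was 40% [28.9, 52.0], and without the highest position of each strand 21 sense reads were left. Of the other listed genes of this domain, Ppp1r9a had 766 sense reads and Casd1 235.

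Peg3 and Usp29 showed a like contrast between head-to-head neighbours. Peg3 (chr7:6703892-6730431, minus strand) encodes a large zinc finger protein known for effects on growth and maternal behaviour. Usp29 (chr7:6730578-6967219, plus strand) encodes a member of the ubiquitin-specific peptidase family, and 146 bases separate the annotated starts. Peg3 had 640 sense reads [591, 692] at 95 positions, and Usp29 had 29 [19.4, 41.7] at 6. Per kb of merged exon the level of Peg3 was 29.9 times that of Usp29. The merged exons have 13324 and 18078 bases, against 8694 and 7540 in the longest coding transcripts. The contrast holds for reads of 1 gene: with reads of several equal placements added, Usp29 stood at 2.24 RPKM and Peg3 at 1.52.

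Sense reads of Peg3 gathered toward both ends of its long mRNA. The 8694 bases of its longest coding transcript, cut into 5 equal lengths, held 180, 50, 45, 93 and 229 reads from the 5′ end. The downstream untranslated sequence held 322 of the 640 sense reads, 50.3% [46.4, 54.3], and makes up 41.6% of that transcript. Coding sequence held 213, 33.3% [29.6, 37.1], and makes up 54.2% of it. Counted once per start position the order of these parts turned around, with 47 of the 95 positions in coding and 32 in downstream untranslated sequence. The 5 lengths held 25, 10, 20, 7 and 25 positions, so that the middle length stood nearer to the ends than by reads. The highest position, in the downstream untranslated sequence, held 49 reads or 7.66%, and 4 sense reads crossed a splice junction, 0.625%.

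Antisense reads of Peg3 numbered 216, a share of 25.2% [22.4, 28.3], and 159 of them, 73.6% [67.2, 79.4], lay in the downstream untranslated sequence. Here too the order turned around when each start position was counted once. Of the 28 antisense positions, 16 lay in coding and 8 in downstream untranslated sequence. Within 50 bases of the printed position, 121 antisense reads started at 3 positions, which is 56.0% of the antisense reads. The highest sense position lies in the same untranslated sequence of the last exon.

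**Figure D3:**
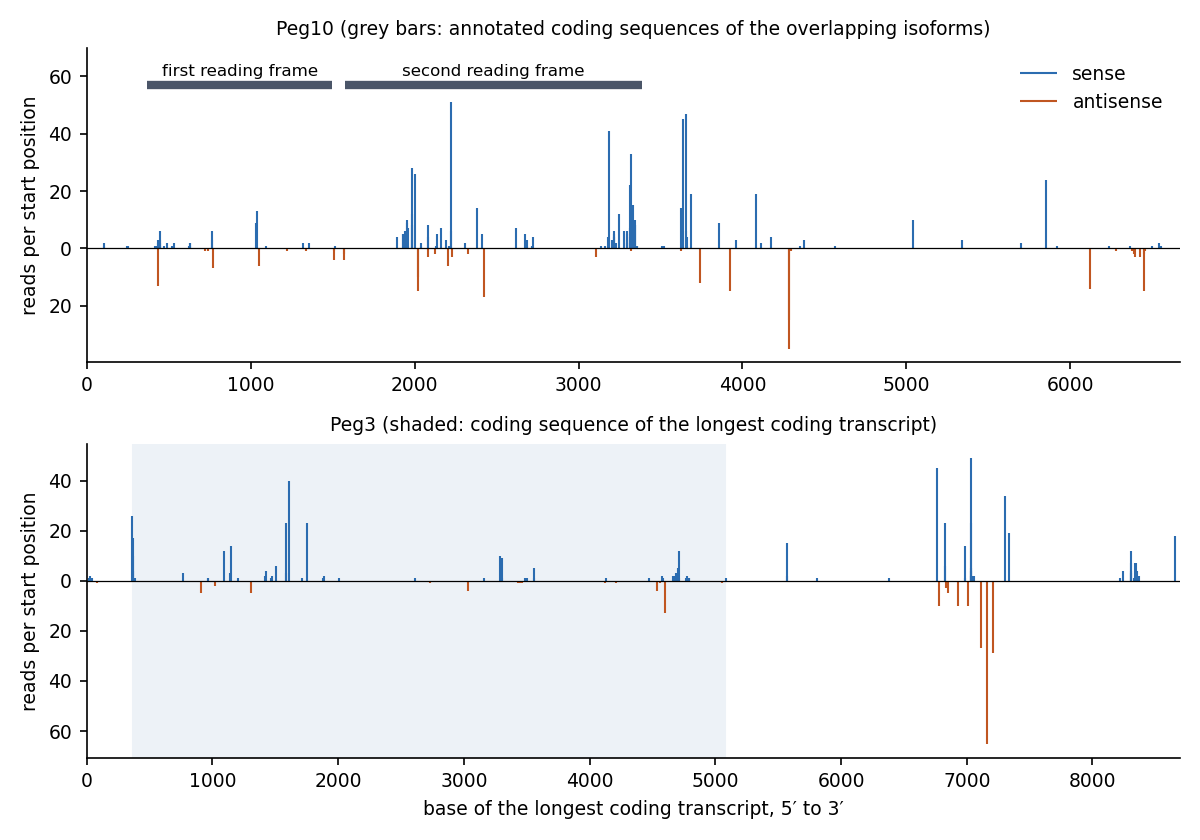
Reads per start position along the longest coding transcript of Peg10 and of Peg3 (horizontal axes, bases from the 5′ end; sense reads are drawn upward and antisense reads downward). Sense reads of Peg10 stand over the second reading frame, which held 509 of 812, and just past it, whereas those of Peg3 stand toward both ends and its antisense reads mainly in the downstream untranslated sequence.

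The 29 sense reads of Usp29 came from 6 start positions. The printed position in exon 1 held 13 of them, 44.8% [26.4, 64.3], and 16 sense reads started within 500 bases of the annotated start of the gene, against 5 for Peg3. All 29 were 40-base reads, whereas 13 of the 16 antisense reads were 36-base reads, and read length and strand could not be told apart at this depth. Reads that matched Usp29 equally well as other genes were not counted; with them the sense count was 1276 and the antisense share 78.0%, against 35.6% [21.9, 51.2] as reported. With the whole read matched the share was 60.6%, so that no side of 50% can be given for this gene. Among the listed neighbours Zim1 had 71 sense reads, Zim2 16, Zfp264 11 and Zim3 2.

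Inpp5f (chr7:128611328-128696425, plus strand) encodes a phosphatase of phosphoinositides, the lipids that label membranes for endocytic traffic. Its imprinting is known for a variant that starts at an internal promoter, while the full-length mRNA is expressed from both copies. It had 571 sense reads [525, 620] and 1168 antisense reads [1102, 1237], an antisense share of 67.2% [64.9, 69.4]. Counted once per start position, with 59 sense and 37 antisense positions, the share was 38.5% [28.8, 49.0], on the other side of 50%. In 36-base reads it was 22.8% and in 40-base reads 70.9%.

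Nearly all antisense reads of Inpp5f came from 1 short stretch of its last exon. In 79 bases of the downstream untranslated sequence (chr7:128695842-128695920) 1063 of the 1168 started, 91.0%, at 23 positions, and 4 sense reads started there. The gene Mcmbp, which encodes a binding protein of the MCM replication helicase, lies tail to tail with Inpp5f on the minus strand, with 15 bases between the annotated ends. The stretch lies from 521 to 599 bases past the annotated 3′ end of Mcmbp, in its direction of reading. Mcmbp had 46 sense reads in its annotated exons, of which 0 started within 1000 bases of its end. Introns and sequence outside annotated transcripts were not searched, and which RNA the antisense reads belong to was not tested. Outside the stretch Inpp5f had 105 antisense reads, a share of 15.5% with all 571 sense reads kept. Leaving out instead the sense reads within 50 bases of the highest sense position gave 84.95%. Leaving out both groups gave 33.65%.

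Sense reads of Inpp5f lay mostly outside the coding mRNA. Within 50 bases of the highest position, 364 of the 571 started, 63.8%, at 33 positions. They lie in the last exon (10 of 10) of the processed transcript Inpp5f-202. A further 47 started at 1 position of the retained-intron transcript Inpp5f-205, and 0 of these 47 matched without a mismatch. Both places have near copies in other annotated genes: the highest position of the former in 5 genes with up to 2 mismatches and 58 with up to 4, the latter in 161 and 1180. Whether reads of either place match elsewhere in the genome was not tested. On the longest coding transcript of Inpp5f 133 sense reads started, at 20 positions. Of the coding isoforms with an internal start, Inpp5f-203 had 8 sense reads that started on it alone and Inpp5f-208 had 0, so that the reads do not separate the variants. Splice junctions were crossed by 108 sense reads, 18.9% [15.8, 22.4], and by 13 antisense reads, 1.11% [0.594, 1.90].

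Impact (chr18:12955852-12992950, plus strand) encodes an inhibitor of the eIF2 kinase Gcn2, which slows translation when amino acids are short. Its sense reads numbered 363 [327, 402], at 51 positions, beside 278 antisense reads [246, 313] at 13. The antisense share was 43.4% [39.5, 47.3] by reads and 20.3% [11.3, 32.2] by start positions. Coding sequence held 213 of the sense reads, 58.7% [53.4, 63.8], although it makes up 25.4% of the longest transcript, and the downstream untranslated sequence held 115, 31.7% [26.9, 36.7]. Splice junctions were crossed by 91 sense reads, 25.1% [20.7, 29.9], and by 9 antisense reads, 3.24% [1.49, 6.06].

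The antisense reads of Impact, like those of Inpp5f, were gathered mainly in 1 short stretch, here in exon 1 of the longest coding transcript. In 46 bases of that exon, just before the start of the coding sequence (chr18:12972281-12972326), 218 of the 278 started, 78.4%, at 9 positions. On the sense strand 34 reads started within 50 bases of the highest antisense position. A second antisense position, in the downstream untranslated sequence, held 48 reads, of which 0 matched without a mismatch. Outside the stretch in exon 1 the antisense share was 14.2%.

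**Figure D4:**
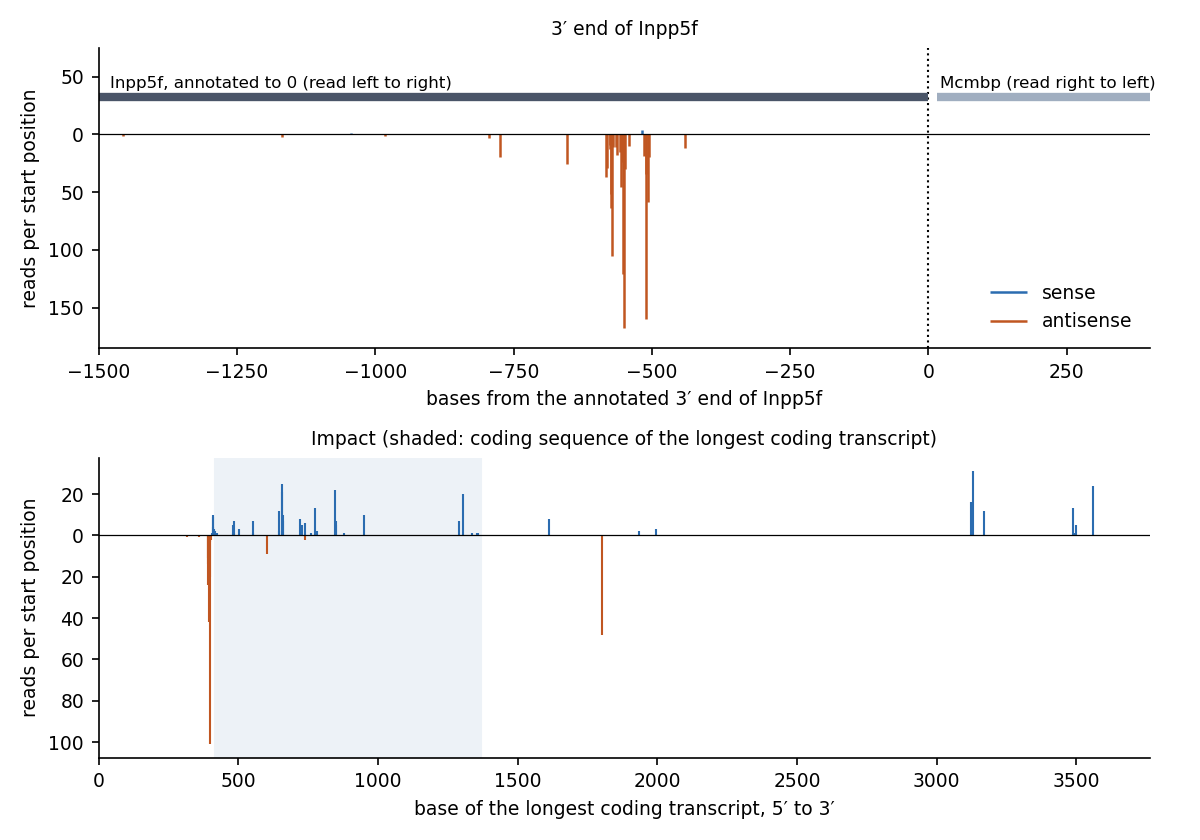
Upper panel, reads per start position over the last 1500 bases of Inpp5f (horizontal axis, bases from its annotated 3′ end; sense upward, antisense downward; grey bars, the extents of Inpp5f and Mcmbp). Lower panel, the same along the longest coding transcript of Impact, where most antisense reads stand just before the coding sequence (218 of 278) and at 1 position after it (48), while in the upper panel they stand in 1 group inside the last exon of Inpp5f.

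Mest, Grb10 and Plagl1 were read at lower levels. Mest (chr6:30723547-30748465, plus strand), the mesoderm-specific transcript, encodes an enzyme of the alpha/beta hydrolase fold and overlaps Copg2 tail to tail. Its sense reads numbered 60 [45.8, 77.2], at 12 positions, beside 12 antisense reads [6.20, 20.96] at 4. Where exons of Mest and Copg2 overlap, a read antisense to Mest was counted as a sense read of Copg2. Copg2 is annotated from 30747554 and the last antisense position of Mest is 30747520, so that the antisense count of Mest leaves out the overlap. The downstream untranslated sequence held 52 of the 60, 86.7% [75.4, 94.1], and makes up 48.7% of the longest transcript. The printed position held 21 reads and a second one within 50 bases held 18, so that 39 of the 60 started at 2 positions. Copg2 had 41 sense reads and Cep41 5.

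Grb10 (chr11:11930508-12038683, minus strand) encodes an adaptor that binds the insulin and IGF1 receptors and restrains growth. It had 96 sense reads [77.8, 117] at 29 positions, spread more evenly than those of the other genes of low level: the highest position held 10, which is 10.4% [5.11, 18.3]. Coding sequence held 46 of the 96 and the downstream untranslated sequence 50. Its 27 antisense reads included 15 on noncoding isoforms alone, and 8 of the 27 crossed an annotated splice junction, 29.6% [13.8, 50.2], against 4 of the 96 sense reads. These antisense reads started at 6 positions, the highest with 11 and 8 reads, and those on noncoding isoforms at 2. Such shares thus rest on few positions, and copies of single molecules could not be told apart. Of the listed neighbours Cobl had 831 sense reads and Ddc 9.

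Plagl1 (chr10:13060504-13131694, plus strand) encodes a zinc finger transcription factor that regulates a network of growth genes. Its sense reads numbered 55 [41.4, 71.6], at 9 positions, beside 54 antisense reads [40.6, 70.5] at 8, an antisense share of 49.5% [39.8, 59.3]. Without the highest start position of each strand the share was 66.7% [52.5, 78.9]. The strands lay in different parts of the gene. Of the 55 sense reads 50 started on the retained-intron transcript Plagl1-207 alone, 37 of them at the printed position, and 0 lay in coding sequence. Of the 54 antisense reads 51 lay in the downstream untranslated sequence of the last exon, at 5 positions. Its sense count thus holds few reads of the coding mRNA.

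Over the 9 genes together, coding sequence held 46.0% [44.1, 47.9] of the sense reads, against 79.2% over the reads of all coding genes and a median of 63.2% by gene over the 6376. The downstream untranslated sequence held 29.0%, against 14.8%, and noncoding isoforms alone held 20.1%, against 4.63%. The last of these came from Inpp5f with 430 reads, Plagl1 with 50, Peg3 with 47, Sgce with 7 and Usp29 with 3, and from Mest with 1. When a read was placed on the longest coding transcript alone, which counts the second frame of Peg10 as untranslated, coding sequence held 33.9% of the reads and 41.5% of the length. Of the antisense reads 74.6% [72.6, 76.5] lay in the downstream untranslated sequence, against 28.75% over the antisense reads of all coding genes. The Inpp5f stretch gave more of these reads than the other genes together.

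Splice junctions were crossed by 7.90% [6.90, 8.99] of the sense reads of the 9 genes, against 21.2% over the reads of all coding genes. By gene the median was 1.82% over the 7 genes with at least 50 sense reads and 4.35% over the 6376 coding genes with as many. Inpp5f and Impact, with 108 and 91 such reads, gave all but 12 of them. The distance of reads from junctions was not taken into account, and Peg10, with the most sense reads, has 2 exons in its longest coding transcript. The highest start position held a median of 10.4% of a gene's sense reads over the 7 genes with at least 50, against 21.6% over the coding genes with at least 50, and Peg10, Peg3, Impact, Grb10 and Inpp5f lay below the latter. Mest with 35% and Plagl1 with 67.3% lay above it.

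**Figure D5:**
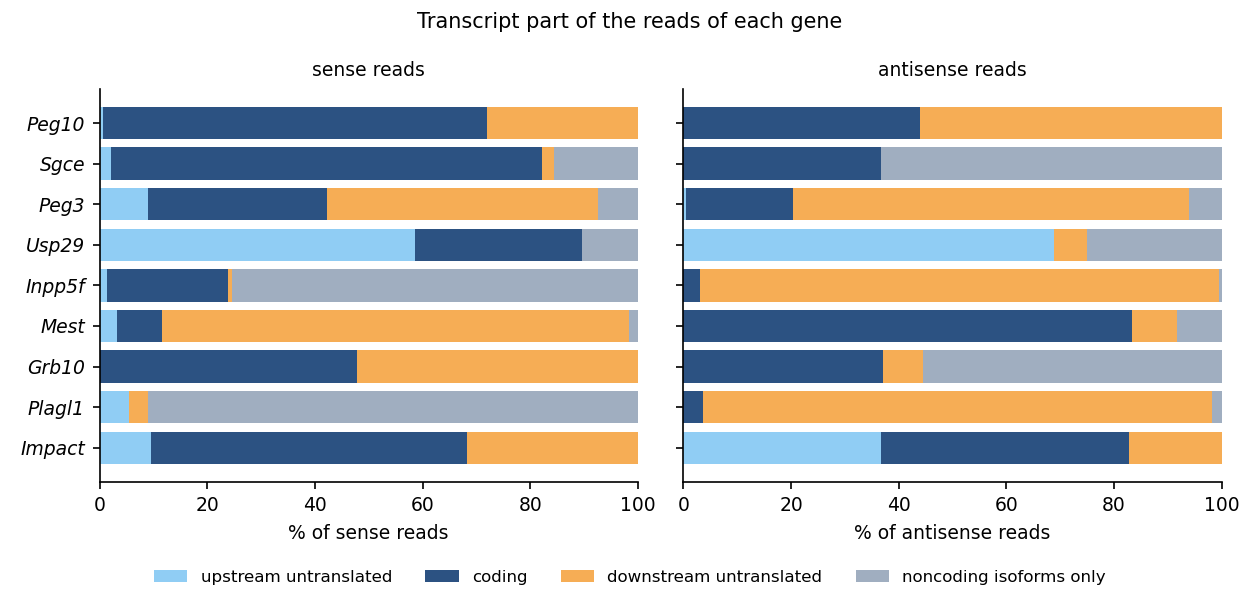
Share of the sense reads (left) and antisense reads (right) of each gene that lie in coding sequence, in upstream or downstream untranslated sequence, or on noncoding isoforms alone (horizontal axes, % of the reads of that strand). Sense reads of Inpp5f (75.3%) and Plagl1 (90.9%) lie mostly on noncoding isoforms, and the antisense reads of Inpp5f (96.3%), Plagl1 (94.4%) and Peg3 (73.6%) mostly in downstream untranslated sequence.

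Other imprinted genes were read from a list of 61, of which 58 are annotated as coding and 3, Zim2, Zfp264 and Zim3, are not. At least 50 sense reads were found for 22 of them, beside the 29.1% of all nuclear coding genes given above. No sense read was found for 9 and no read for 4, and their median level was 0.192 RPKM, against 0.0852 over all coding genes. The 6 with most sense reads were Igf2r with 2153, Cd81 with 1601, Cobl with 831, Ppp1r9a with 766, Zdbf2 with 591 and Ube3a with 533. The 6 with most antisense reads were Rtl1 with 197, Gab1 with 193, Igf2r with 114, Slc38a4 with 94, Igf2 with 92 and Zdbf2 with 90. Of 26 with at least 50 reads of both strands 2 had an antisense share above 50% by its interval, Gab1 at 63.9% [58.2, 69.3] and Igf2 at 92.9% [86.0, 97.1], beside the 15.7% of all nuclear genes given above. Igf2r, which encodes the receptor that clears Igf2, had more sense reads than Peg10, at 7.34 RPKM against 3.86.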

How the data were processed

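The deposited table lists distinct read sequences with whole-number read counts, which the authors did not scale to depth. Its lengths run from 12 to 36 bases and 40 bases. The labels do not say how the authors filtered or collapsed them, and the table's deposited name was not taken as evidence of its library or its filters. The build is mm9 per the submitters' processing notes; the table itself gives no position, and GRCm38 positions are printed. No header or label ties the count column to a library, so it was treated as 1 pool, and tests between groups were left out.

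The first 6 bases of each read were left out, since they often mismatch, and at least 20 had to remain, which sets a minimum length of 26. The remainder was matched to GENCODE M21 transcripts with bwa 0.7.19, with up to 2 mismatches, no gaps and up to 1000 placements. Reads run opposite to the RNA, and sense and antisense refer to the RNA. Assignment needed best placements in sense on 1 gene (antisense hits were tolerated only on opposite-strand genes that overlap it) or in antisense on 1 gene. The start position is the genome base at the 5′ end of the matched part of the read, and the transcript part is that of its midpoint, coding in any isoform first. RPKM values were computed from counts and merged exon length. A check used 3600 simulated reads with up to 2 mismatches, drawn only from the longest coding transcripts of the 9 genes. Of these reads 95.8% returned to their own gene and strand, 3.97% to the opposite-strand gene of an overlap and 0.194% matched several genes. The check thus does not cover the noncoding and retained-intron isoforms, where most sense reads of Inpp5f and Plagl1 lay. Reads from outside the transcripts were not simulated. Intervals are from scipy 1.17.1.

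The 9 genes and all gene lists were chosen with earlier results of these data known. The named genes are the 9 genes, the 6 of the other imprinted coding genes with most reads of each strand, listed neighbours, the 3 markers of each list with most sense reads, and the 3 highest start positions of at least 10 reads; neighbours are named selectively, stretches were printed for a selection of positions, and the sequence at 1 of those selected is not reported here. Alternatives changed the counting unit, mismatches, read length, uniqueness, trimming, minimum and start positions.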

Additional observations from a re-analysis of the deposited data

How the results depend on the processing

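With 1 pool, leaving out a replicate was not possible. No paired analysis was possible because the result comes from no test between samples. The planned search of introns was not run, because no genome was at hand. The antisense shares of Peg10, Peg3 and Impact stayed below 50% under all 10 alternatives listed at the outset. That of Inpp5f, 67.2% as reported, was 41.6% over distinct sequences, 38.5% over start positions, 42.0% with reads of several equal placements added and 22.8% in 36-base reads. Leaving out the 50 bases on either side of the highest start position of each gene and strand, an alternative chosen after the data had been seen, gave 33.7%. The count of 7 genes with at least 50 sense reads became 4 with distinct sequences, 4 with start positions, 3 in 36-base reads and 4 at a minimum of 200 reads. The count of other imprinted coding genes, 22, became 12, 7, 5 and 11 under these settings. The count of 1 gene with an antisense share above 50% became 0, 0 and 0 under the first 3, and 2, Inpp5f and Plagl1, without the highest start position of each gene and strand. With several placements it remained 1, but the gene was then Usp29.

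The pooled antisense share of 43.2% became 28.5% with distinct sequences, 26.6% with start positions, 40.8% with no mismatch, 56.99% with several placements, 31.2% in 36-base reads, 44.8% in 40-base reads, 40.4% without the highest start positions and 20.5% without the 50 bases around them. The coding share of 46.0% became, in that order, 49.9%, 53.9%, 44.0% and 24.2%, then 51.2% in 36-base reads, 48.3% and 57.9% without the highest positions or the bases around them, 48.7% with the whole read matched and 33.9% on the longest transcript alone. The median level of 0.482 RPKM became 0.747 with distinct sequences, 1.52 with several placements, 0.282 in 36-base reads, 0.314 without the highest positions and 0.300 without the bases around them. Counting start positions gives no level and no share at the highest position. The median share at the highest position, 10.4%, lay between 7.42% and 17.1% in every alternative that gave a value. No interval of this median was made. That of the middle gene alone, Grb10, is wide, [5.11, 18.3], and does not measure how stable the median is. With several placements the sense reads of Usp29 were 1276 and of Inpp5f 1726. The cause of these shifts was not tested, except that fewer reads or positions pass a minimum where fewer are counted. Depth limits Sgce, Usp29, Mest and Plagl1 most, where 1 or 2 start positions carry much of the count.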

Other observations

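The wild-type cells carry genome of M. castaneus in part, per the labels, and the reads of the 9 genes were scanned for bases that differ from the annotated sequence. Thresholds were set after the read counts had been seen: at least 10 reads with the difference, at 3 or more start positions, in at least 20% of the reads over the base. Of 1348 bases covered deeply enough, 2 passed. In the antisense stretch of Inpp5f, at G128695894A (the reference base, its GRCm38 position on chromosome 7 and the base in the reads, all on the plus strand), 219 of 442 reads carried the difference, 49.5% [44.8, 54.3], at 5 start positions, and 9 start positions had reads with the reference base. In Peg10, at A4757131C on chromosome 6, 13 of 36 reads did, 36.1% [20.8, 53.8], at 3 start positions, and 4 start positions had reads with the reference base. No strain sequence was used here, so neither base can be given to a parental copy.

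Among the reads of the 9 genes, mismatches in the 6 left-out leading bases fell from 27.9% at the first base to 7.98% at the sixth, over 4689 reads, and 48.1% of the reads matched at all 6.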
